A study of Mus musculus with 16 samples.

Results

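RNA levels were compared at day 10 between mouse cells carrying an shBeclin1 hairpin and cells carrying an shNT hairpin, taken as the control, in the culture labelled CM without GF. The libraries were taken by their labels, with no measured value used in the choice of samples. They are 4 of the 16 libraries of the series, 2 with each hairpin, with 19141 genes tested. All libraries derive from ES-E14TG2a, a mouse embryonic stem cell line, labelled genotype WT, so the hairpin is the one stated difference between the groups. The other 12 libraries hold the same pair of hairpins, again in 2 libraries each, in undifferentiated cells (ES, day 0), in embryoid bodies (EB, day 4) and in the day 10 culture labelled CM. The labels do not spell out GF, do not name the shBeclin1 sequence, list no rescue and do not say whether replicates were separate cultures. P-values therefore measure the spread between replicate libraries, estimated over all 16 libraries and not from these 4 alone. With no rescue listed, lower Becn1 cannot be told apart from any other consequence of carrying the hairpin. The batch tag holds the treatment name again, so a batch effect cannot be told apart from the treatment. The study asked how lowering Beclin1 favours cardiac differentiation, and its title names Wnt and BMP signalling.

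Beclin1 is the regulatory subunit of the class III phosphatidylinositol 3-kinase complex, which makes the lipid that marks sites where autophagosomes form. It binds BCL2 family proteins through a BH3 domain. In differentiating embryonic stem cells, BMP, Wnt, Nodal and FGF signals direct cells toward mesoderm, where GATA, HAND, T-box and NKX factors turn on the contractile genes of heart muscle. Cells that receive little BMP, Wnt or Nodal signal tend to follow a neural course. The same mesoderm also gives rise to endothelium, blood, epicardium, smooth muscle and fibroblasts.

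The shNT libraries held 14967744 and 16408357 counts and the shBeclin1 libraries 16744240 and 18652200, within the range of the series (14967744 to 21422980). Levels below are CPM, counts relative to library size after TMM scaling, and a log2 fold is shBeclin1 minus shNT from edgeR's quasi-likelihood test with Benjamini-Hochberg adjustment over all genes tested. A gene is said to rise or fall where the adjusted p was under 0.05. The shBeclin1 pair differed from each other more than most pairs: a chi-square statistic per degree of freedom of 7.62 stood against 1.98 for the shNT pair, 1.42 to 2.96 for 5 other pairs and 7.91 for the ES shNT pair. Marker levels also went against the label. The 4 libraries are labelled mouse cardiomyocyte with heart as tissue. The summed CPM of 10 cardiomyocyte markers was only 23.8 and 19.4 in the shNT libraries, against 2520 and 4750 in the shBeclin1 libraries. The shNT sums were below the 33.0 of the ES shNT group, but Ryr2 alone gave 17.8 of that 33.0. Ryr2 held 2.85 and 1.38 CPM in the shNT libraries, and without it the ES shNT sum would be the lower. Of the 10 markers, Myh7 (9.18 and 8.02 CPM against 0.411 in ES shNT) and Actn2 (3.04 and 2.64 against 1.90) were above the stem cell level in both shNT libraries. Tnnt2 was barely above it (1.24 and 1.20 against 1.17), while Nkx2-5 was at 0.

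Becn1 was lower in the shBeclin1 libraries. The shNT libraries held 63.5 and 60.9 CPM (62.2 ± 1.83, SD, n = 2) and the shBeclin1 libraries 42.7 and 45.2 (44.0 ± 1.78, SD, n = 2). The groups did not overlap, and 70.8% of the control level remained (95% interval of the fit 63.7 to 78.7). The log2 fold was -0.50 (SE 0.075, adjusted p = 5.17e-07), against -0.69 in the CM culture, -1.005 in embryoid bodies and -1.20 in ES cells. The effect was smaller than in embryoid bodies (difference of log2 folds 0.51, adjusted p = 0.000203), while the difference from the CM culture was 0.19 (adjusted p = 0.18). Becn1 lies on the minus strand of chromosome 11 at 101285952 to 101302286 (GRCm38) in 10 merged exons, and 43.9% of its exon length is shared with Cntd1 on the opposite strand. Whether counting used the strand is not stated in the labels or notes, so reads from both genes may be mixed. Alas2, Csf1r, Ctsa, Ctsb, Fgfr3, Foxb1 and Pou5f1, named below, share 12.8% to 17.4% of their exon length with genes of the opposite strand. Myh7, named above, shares 13.3% with such genes. All of these are uncertain in the same way. Bax, Pkm and Rps12, also named below, share 12.2%, 15.3% and 13.7% with transcripts of their own strand, which strand use would not separate.

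Most genes tested moved, about as many up as down. Of 19141 genes, 10466 (54.7%) were called, of which 5235 rose (27.3% of those tested) and 5231 fell (27.3%). A change of at least 2-fold was called upward in 2129 genes (11.1%) and downward in 2004 (10.5%), and the median log2 fold over all genes was -0.01. The groups did not overlap in 14559 genes (76.1%), so a lack of overlap was common to most genes. These shares are the background for the gene lists below: a list with about 27.3% of its members rising moved no more than genes at large.

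**Figure D1:**
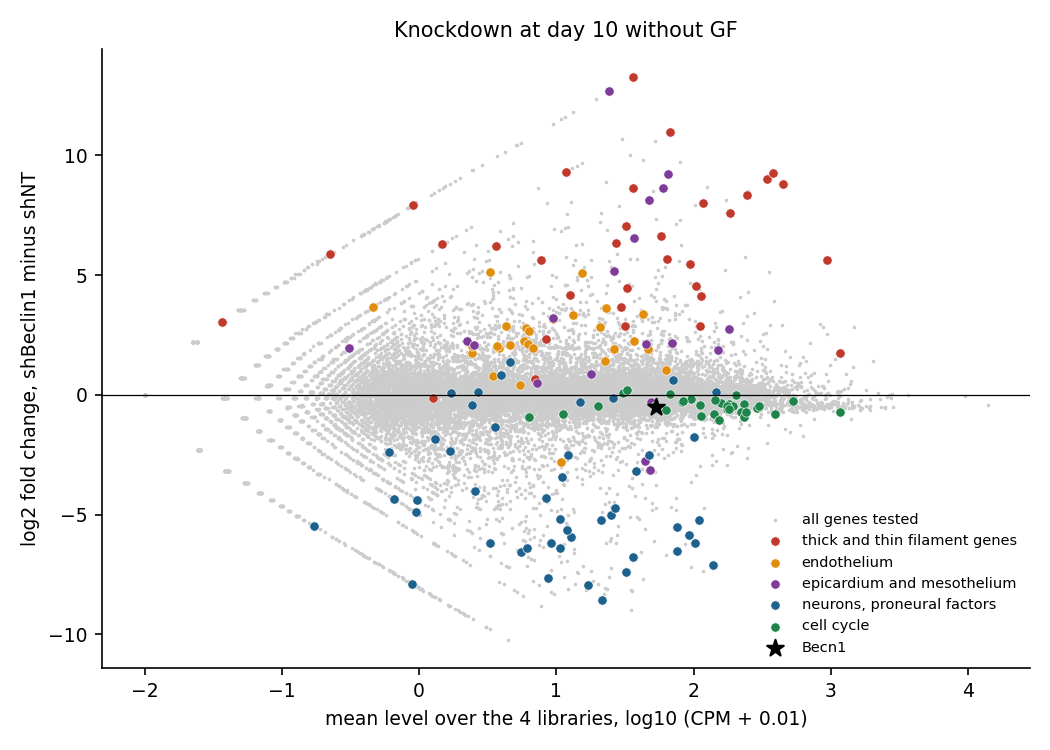
Log2 fold of every gene tested (shBeclin1 minus shNT, vertical axis) against its mean level over the 4 libraries (log10 of CPM plus 0.01, horizontal axis), with all genes in grey and 5 gene groups and Becn1 in colour. Thick and thin filament genes, endothelial genes and epicardial genes lie above 0 with few exceptions, neuronal and proneural genes lie mostly below, cell cycle genes lie in a narrow band just below 0, and Becn1 sits at -0.50.

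The largest rises came from a level at or near 0. Csrp3, a Z disc protein of striated muscle, had no count in either shNT library and 53.7 and 91.0 CPM in the shBeclin1 libraries, at least 822-fold higher when 3 counts over both shNT libraries, or 0.0893 CPM, are taken as the limit that 0 counts allow. With the same limit Tcf21, a transcription factor of epicardium and cardiac fibroblasts, was at least 541-fold higher, Oit3 at least 439-fold, Ctnna3, the alpha catenin of cardiac junctions, at least 297-fold, Bmp10, a ligand of heart muscle, at least 263-fold and Nr1h5 at least 243-fold. A further 3 of the 10 largest had 1 or 2 counts in shNT. Mybpc3, the cardiac myosin binding protein, was higher by a ratio of 2320 (95% counting interval 642 to 19200), Tac2, a tachykinin precursor, by 2020 (362 to 79800) and Trim55, a muscle ubiquitin ligase, by 1790 (494 to 14700). Csrp3, Ctnna3, Mybpc3, Trim55 and Bmp10 among them are known from heart or striated muscle. The call for Csrp3 was not kept by DESeq2 or by a fit of the 4 libraries alone.

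Among the 10 largest falls were several factors known from brain or spinal cord. Wnt8b, a forebrain Wnt ligand, held 9.43 and 8.36 CPM in shNT and no count in shBeclin1, at least 110-fold lower. Nkx6-1, a factor of the ventral neural tube, held 73.6 and 67.1 CPM against 0 and 0.253, and Dbx1, which marks spinal interneuron progenitors, held 74.9 and 68.2 against 0 and 0.455. Neurod4, a proneural factor, held 41.2 and 44.7 CPM against 0 and 0.202. In these 3 genes the shNT pair lay high and close together while shBeclin1 replicate 1 had no count, so the fitted log2 folds (-8.96, -8.17 and -8.55) run from -8.08 to -13.2, -7.27 to -13.2 and -7.68 to -12.5 when 1 library is left out. Sim1, a hypothalamic factor, was lower by a ratio of 570 (102 to 22600), Mir124a-1hg, the host of a neuronal microRNA, by 427 (76.2 to 16900), Irs4 by 366 (65.2 to 14500), Foxb1 by 357 (98.4 to 2950) and Six3, a forebrain factor, by 338 (93.2 to 2800). Sfta3-ps, a neighbour of Nkx2-1, fell from 32.7 and 32.9 CPM to 0.114 and 0.101.

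Heart muscle regulators rose together. Of 21 cardiac transcription factors, 20 rose, 1 fell and the median log2 fold was 4.22. Gata4, a zinc finger factor needed for heart development, held 0.186 and 0.172 CPM in shNT and 144 and 172 in shBeclin1, a log2 fold of 9.73 (SE 0.18, adjusted p = 3.01e-32). Gata6, its relative, went from 0.931 and 0.745 CPM to 199 and 211 (log2 fold 7.93, adjusted p = 7.37e-33), and Hand2, a basic helix-loop-helix factor of the outflow tract and right ventricle, from 1.12 and 1.26 to 368 and 314 (8.15, adjusted p = 9.72e-31). In all 3 genes the shBeclin1 pair lay close together and far from the shNT pair. Gata4 lies on chromosome 14 (GRCm38 63198922 to 63271692, minus strand), and Hand2 shares 19.6% of its exon length with a transcript of the opposite strand. Gata5 was higher by a ratio of 1150 (95% counting interval 318 to 9490) and Tbx5, a T-box factor of the left heart and limb, by 889 (159 to 35200). Nkx2-5, an early factor of heart progenitors, had no count in shNT and 7.69 and 9.20 CPM in shBeclin1, at least 95-fold higher. In bulk RNA, more cells of a type and more RNA per cell cannot be told apart, here and for each cell type below.

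The factors named next were already present in the shNT libraries and rose by less than those above, or fell. Mef2c, a MADS-box factor of muscle, held 12.3 and 12.0 CPM in shNT and 145 and 178 in shBeclin1 (log2 fold 3.73). Isl1, a marker of second heart field and of motor neurons, held 62.0 and 69.1 against 131 and 118 (0.92), and Tbx20 held 20.6 and 21.5 against 49.1 and 87.4 (1.70). Tbx18, a factor of epicardium and the sinus horns, held 25.8 and 25.1 against 114 and 113 (2.16). Prox1, which acts in lymphatic endothelium, liver and heart, was the member that fell, from 28.3 and 26.9 CPM to 14.7 and 22.1 (-0.58, adjusted p = 0.000168). Smyd1, a muscle methyltransferase, rose from 8.19 and 9.39 CPM to 422 and 516 (5.73), above the list median of 4.22.

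Sarcomere genes were among the strongest rises. All 9 thin filament genes tested rose, with a median log2 fold of 6.28, and 22 of 24 thick filament and Z disc genes rose, with none falling and a median of 5.65 (5.56 with the genes at 0 in shNT set at their bound). Tnnt2, cardiac troponin T, held 1.24 and 1.20 CPM in shNT and 544 and 977 in shBeclin1 (log2 fold 9.28, SE 0.42, adjusted p = 6.39e-08). Myh6, the alpha myosin heavy chain, held 1.49 and 2.46 against 539 and 1263 (8.81, SE 0.55, adjusted p = 8.13e-07), and Myl7, the atrial light chain, 1.80 and 0.859 against 543 and 825 (9.02, adjusted p = 5.19e-09). Every shBeclin1 value of these genes lay far above both shNT values, and replicate 2 lay above replicate 1 in each. Actc1, cardiac actin, rose from 39.0 and 35.7 CPM to 1311 and 2390 (5.63). Myl2, the ventricular light chain, rose from 0.310 and 0.630 CPM to 53.5 and 74.6 (7.05, adjusted p = 9.68e-21, or 7.65 without shNT replicate 2), and Ttn, the giant spring protein titin, from 2.42 and 1.43 to 240 and 488 (7.57). Tpm1, a tropomyosin of many cell types, rose from 539 and 519 CPM to 1650 and 1941 (1.76, adjusted p = 3.65e-23). Per kilobase of merged exon, Tnnt2 went from 0.160 and 0.155 CPM to 70.2 and 126, and Myh6 from 0.221 and 0.366 to 80.1 and 188. Merged length takes in every annotated exon of a gene (7752 and 6726 bases). It is not the length of the transcript made, so the 2 genes are not compared on that scale.

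The size of the sarcomere rise differed between the shBeclin1 libraries. Replicate 2 exceeded replicate 1 in 20 of 20 thick filament genes with enough counts, by 1.27 to 2.34 times and a median of 1.72, and in 7 of 7 thin filament genes by a median of 1.60. The same ratio was 0.986 at the median of 12123 genes, 0.669 for blood genes, of which 1 of 10 was higher in replicate 2, 0.860 for cell cycle genes, of which 0 of 32 were, and 1.30 for endothelial genes, of which 17 of 20 were. The shNT pair gave medians of 0.888 for thick filament, 1.10 for blood, 1.05 for cell cycle and 1.02 for endothelium. When 1 library was left out, 21 to 23 thick filament genes rose, with list medians from 5.11 to 5.99 over all 4 omissions. The part of these differences within the pair in the results below was not tested.

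**Figure D2:**
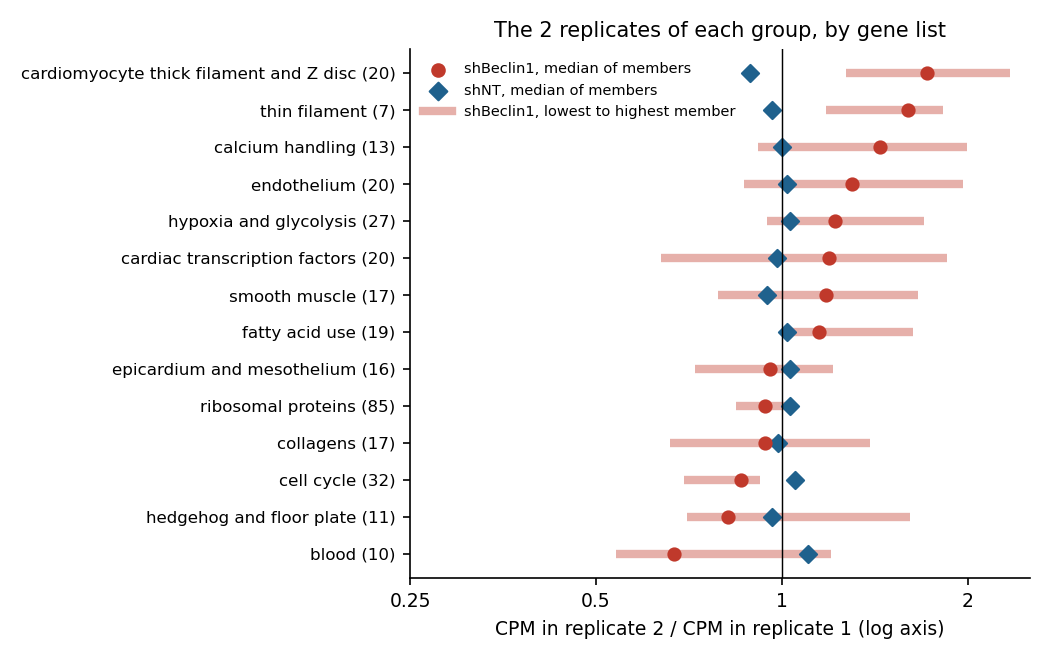
Ratio of CPM in replicate 2 to replicate 1 for 14 gene lists, with the median of the shBeclin1 pair as red dots, its lowest to highest member as pink bars and the median of the shNT pair as blue diamonds. Thick and thin filament and calcium handling lists stand highest in the shBeclin1 pair (1.72, 1.60 and 1.44) and the blood list lowest (0.669), while the shNT medians stay near 1.

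Genes of calcium cycling and electrical activity also rose, with more exceptions. Of 14 calcium handling genes 12 rose and 2 fell (median 2.69), 1 of the falls being lost without shNT replicate 2 or either shBeclin1 library, and of 16 cardiac ion channels and connexins 8 rose and 4 fell (median 0.80, from 0.50 without shNT replicate 1 to 1.21 without shNT replicate 2). Ryr2, the calcium release channel, held 2.85 and 1.38 CPM in shNT and 112 and 207 in shBeclin1 (log2 fold 6.25, adjusted p = 2.6e-06), and Slc8a1, the sodium-calcium exchanger, 19.05 and 20.1 against 463 and 921 (5.14). Atp2a2, the calcium pump of the reticulum, held 205 and 199 against 562 and 875 (1.83), and Jph2, which joins the reticulum to the surface membrane, 9.18 and 9.34 against 98.2 and 121 (3.56, adjusted p = 2e-26). Trdn, the triadin of the release complex, had no count in shNT and was at least 115-fold higher. Cacna1c, the L-type channel, rose by 3.13, while Cacna1g, a T-type channel, and Casq2, the calcium buffer of the reticulum, fell by 1.02 and 1.27.

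Channels of pacemaker and repolarising currents were among those that rose. Hcn4, the main pacemaker channel of mouse heart, held 7.76 and 5.50 CPM in shNT and 51.7 and 101 in shBeclin1 (3.54). Kcnh2, which carries a repolarising potassium current, held 8.38 and 6.24 against 49.2 and 54.7 (2.83), and Kcnj5 rose by 6.95. Gja1, connexin 43, fell from 284 and 306 CPM to 147 and 133 (-1.08, adjusted p = 2.31e-17), and Kcnj2, an inward rectifier, fell by 0.85. Of 7 natriuretic peptide and stretch genes 5 rose and 1 fell (median 2.28). Nppa, the atrial peptide, was higher by a ratio of 99.5 (33.8 to 485), but 61.5% of its exon length is shared with another gene. Ankrd1, a stretch-induced cofactor, rose from 7.76 and 7.85 CPM to 123 and 150 (4.12).

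**Figure D3:**
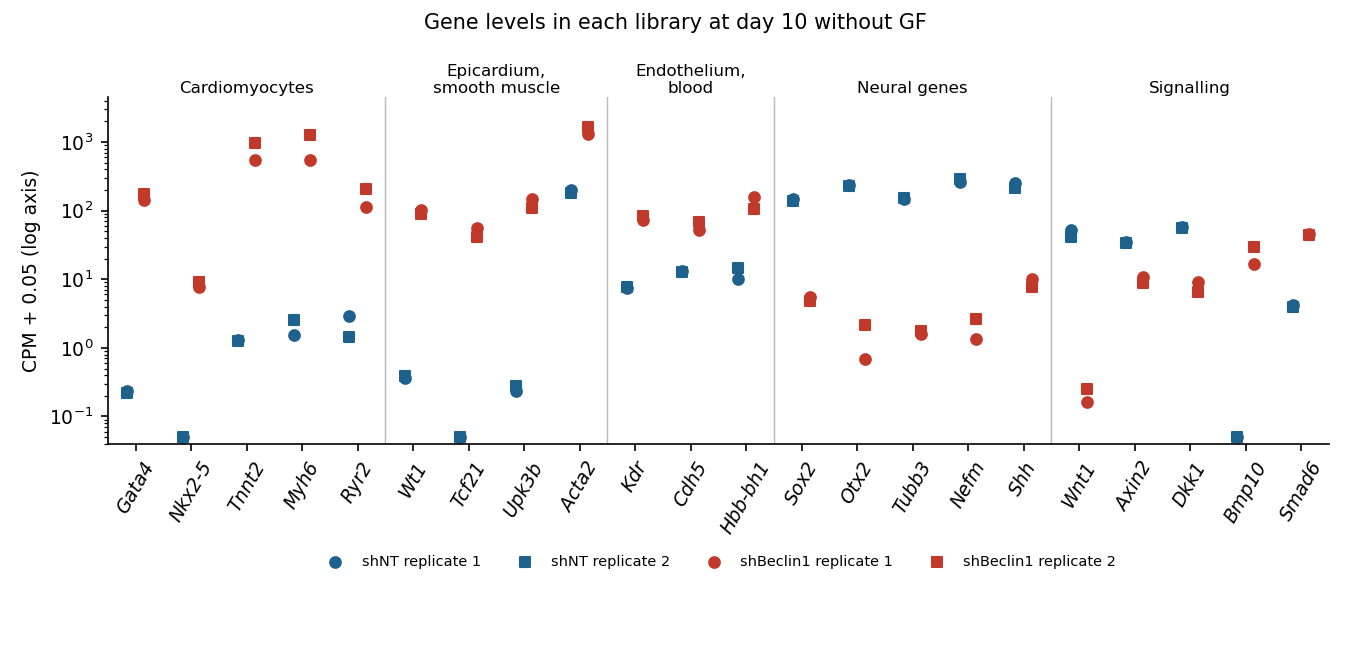
Level of 22 genes in each of the 4 libraries (CPM plus 0.05 on a log axis), shNT in blue and shBeclin1 in red, replicate 1 as circles and replicate 2 as squares. Heart, epicardial, endothelial and blood genes sit higher in both shBeclin1 libraries, while Sox2, Otx2, Tubb3, Nefm, Shh, Wnt1, Axin2 and Dkk1 sit lower in both.

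Most epicardial and mesothelial genes rose, several of them from near 0. Of 19 tested, 16 rose and 3 fell (median 2.16), and the 4 markers Wt1, Upk3b, Tcf21 and Msln summed to 0.744 and 0.573 CPM in shNT against 307 and 239 in shBeclin1. Wt1, a zinc finger factor of the mesothelium, held 0.310 and 0.344 CPM in shNT and 101 and 88.6 in shBeclin1 (log2 fold 8.14, adjusted p = 8.51e-28). Upk3b, an uroplakin of mesothelial cells, held 0.186 and 0.229 against 150 and 109 (9.23), Bnc1, the basonuclin, 0.310 and 0.286 against 131 and 110 (8.62), and Tcf21 no count against 55.8 and 41.7. No shNT value of these genes approached a shBeclin1 value. The simple keratin gene Krt8 rose from 48.3 and 44.7 CPM to 343 and 285 (2.76), and Aldh1a2, which makes retinoic acid, from 1.68 and 2.01 to 15.8 and 18.3 (3.20). The guidance ligand gene Sema3d and the membrane protein gene Gpm6a fell by 3.15 and 2.75. Msln was called at 4 counts in shNT and 18 in shBeclin1, and held 0.248 and 0 CPM of the shNT sums against 0.399 and 0.556 of the shBeclin1 sums.

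Smooth muscle genes followed the same direction, and matrix genes were mixed. Of 18 smooth muscle genes 16 rose and 2 fell (median 2.80), or 1 fell without shNT replicate 1 or shBeclin1 replicate 2. Acta2, smooth muscle actin, which early heart muscle also expresses, held 202 and 181 CPM in shNT and 1327 and 1648 in shBeclin1 (2.96), Cnn1, calponin, 7.38 and 8.13 against 106 and 131 (3.93), and Rgs5, a pericyte marker, 1.43 and 0.573 against 168 and 147.7 (7.31, or 8.08 without shNT replicate 1). Mylk, the myosin light chain kinase, and Notch3 fell by 1.94 and 0.24. Of 18 collagen genes 12 rose and 3 fell (median 0.29, or 0.17 without shBeclin1 replicate 1). Col1a1, a chain of fibrillar collagen I, held 278 and 274 CPM against 1597 and 1600 (2.53, adjusted p = 2.86e-27), while Col3a1 fell by 0.57. Of 25 fibroblast and matrix genes 15 rose and 5 fell (median 0.67).

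Single matrix genes moved far in opposite directions. Tnc, tenascin C, rose from 23.9 and 25.1 CPM to 516 and 432 (4.27), and Pdgfra, the receptor that marks cardiac and other mesenchyme, from 63.6 and 71.1 to 299 and 316 (2.19). Postn, periostin, fell from 266 and 243 CPM to 28.4 and 46.9 (-2.75), and Lum, the proteoglycan lumican, from 50.1 and 47.5 to 0.684 and 0.708 (-6.12). Mesenchymal transcription factors split likewise, with 12 of 26 rising and 8 falling (median 0.48, from 0.15 without shNT replicate 2 to 0.69 without shNT replicate 1). Alx1, a homeobox gene of craniofacial mesenchyme, rose from 3.85 and 2.23 CPM to 132 and 110 (5.32), and the forkhead genes Foxd1 and Foxf2 fell (-6.19 and -6.21, Foxf2 -6.86 without shBeclin1 replicate 1).

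Endothelial genes rose almost throughout. Of 27 tested, 25 rose and 1 fell (median 2.12), and in the 4 omissions of 1 library 24 or 25 rose. Kdr, the main VEGF receptor, held 7.32 and 7.79 CPM in shNT and 73.0 and 84.2 in shBeclin1 (log2 fold 3.38, SE 0.093, adjusted p = 2.57e-27). Tek, the angiopoietin receptor, held 3.66 and 3.27 against 35.8 and 49.6 (3.63), Cdh5, VE-cadherin, 13.0 and 12.8 against 52.8 and 68.6 (2.24), and Pecam1 39.4 and 43.1 against 74.3 and 96.8 (1.05). The shBeclin1 libraries were higher without overlap for each receptor and junction gene named. Stab1, a scavenger receptor of sinusoidal endothelium and macrophages, rose from 0.807 and 0.916 CPM to 23.6 and 35.8 (5.10). Apln, a ligand of angiogenic tip cells, was the member that fell, from 18.9 and 18.8 CPM to 2.11 and 3.29 (-2.78, adjusted p = 6.28e-19), while its receptor Aplnr rose from 1.74 and 1.72 to 11.2 and 10.7 (2.66).

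Blood genes rose with a wider spread between the shBeclin1 libraries. Of 18 tested, 14 rose and 2 fell (median 2.37). Hbb-bh1, an embryonic beta globin, held 10.1 and 14.4 CPM in shNT and 159 and 107 in shBeclin1 (3.43, adjusted p = 7.41e-05), and Hba-a1, an adult alpha globin, 2.17 and 3.15 against 34.8 and 22.3 (3.41). Alas2, which starts haem synthesis in red cells, held 1.92 and 1.66 against 17.3 and 9.10 (2.87). Each shBeclin1 value lay above both shNT values, with replicate 1 the higher, opposite to the sarcomere genes. The blood and endothelial factors Tal1 and Lmo2 rose by 2.70 and 1.57, and Runx1, needed for definitive blood formation, fell by 1.20. Hba-a1 has a near-identical copy, Hba-a2, so its counts are uncertain. Of 15 macrophage genes 5 were tested and 3 rose, or 2 without shNT replicate 2 or shBeclin1 replicate 2, among them Mrc1, a mannose receptor also found on sinusoidal endothelium, from 0.062 and 0.286 CPM to 21.1 and 26.8 (7.01, with 6.35 to 8.43 when 1 library is left out).

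Neural progenitor genes and proneural factors mostly fell. Of 24 neural progenitor genes 20 fell and 3 rose, or 2 rose without shNT replicate 2 or shBeclin1 replicate 1 (median -5.50, or -5.31 with genes at 0 in shBeclin1 at their bound), and of 15 proneural factors 14 fell and none rose (median -6.19, or -5.19 with bounds). Sox2, a factor of neural progenitors and of pluripotent cells, held 150 and 139 CPM in shNT and 5.41 and 4.80 in shBeclin1 (log2 fold -4.82, adjusted p = 4.76e-31). Otx2, a forebrain and midbrain factor, held 237 and 232 against 0.627 and 2.12 (-7.36). The shNT pair was high and the shBeclin1 pair low in both. The progenitor genes that rose were Pax6, an eye and forebrain factor, from 4.53 and 6.93 CPM to 20.2 and 24.5 (1.96), Dach1 (1.31) and Sox4 (0.17). Of 29 factors of neuron subtypes 19 fell and 4 rose (median -3.30), with Lmx1a, of roof plate and midbrain dopamine progenitors, going from 61.1 and 47.7 CPM to 1.03 and 0.859.

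Genes of differentiated neurons showed the same pattern. Of 32 neuron and synapse genes 25 fell and 3 rose (median -3.58), and without shNT replicate 1 the number rising was 1. Tubb3, the neuronal beta tubulin, held 147 and 154 CPM in shNT and 1.54 and 1.72 in shBeclin1 (-6.52, adjusted p = 5.92e-31), and Map2, a dendritic microtubule protein, 220 and 210 against 6.10 and 5.46 (-5.22, adjusted p = 3.85e-32). Nefm, a neurofilament chain, held 260 and 290 against 1.31 and 2.58 (-7.11), and Elavl4, a neuronal RNA-binding protein, 178 and 186 against 3.48 and 2.78 (-5.87). The 5 neuron markers together summed to 407 and 423 CPM in shNT and 8.15 and 10.8 in shBeclin1. The sum was 204 in ES shNT and 36.1 in CM shNT, but Stmn2 alone gave 163.5 of that 204. Stmn2 held 142.7 and 152.5 CPM in the shNT libraries without GF. Members that rose included Syt1, a vesicle calcium sensor, and Ncam1, an adhesion protein. Axon guidance genes fell more often than they rose, 23 against 11 of 38 (median -0.54). Ntn1, netrin of the floor plate, held 204 and 175 CPM against 0.911 and 1.67 (-7.17) and Slit1 107 and 96.7 against 0.911 and 1.97 (-6.11, or -6.79 without shBeclin1 replicate 2), while Plxna4, a semaphorin receptor, rose from 6.58 and 7.62 to 196 and 167 (4.67).

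Hedgehog and floor plate genes were lower. Of 14 tested, 11 fell and 3 rose (median -2.27). Shh, the ligand made by notochord and floor plate, held 249 and 211 CPM in shNT and 9.91 and 7.73 in shBeclin1 (-4.71, adjusted p = 7.93e-29), though 28.3% of its exon length is shared with genes of the opposite strand. Its receptor and target Ptch1 held 317 and 317 against 64.4 and 52.7 (-2.44, adjusted p = 9.03e-25), and Gli1, the other common readout of the pathway, 32.5 and 32.5 against 8.60 and 6.67 (-2.10). Foxa2, which acts in floor plate and endoderm, held 50.01 and 45.9 against 1.71 and 1.97 (-4.69). Gli2, Gli3 and Nog were the members that rose (1.42, 1.31 and 0.43). T, the notochord and streak factor Brachyury, held 29.3 and 28.2 CPM against 0 and 0.303 (-7.42, with -6.53 to -11.9 when 1 library is left out). In the other day 10 culture T fell from 259 to 0.430 CPM.

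Most anterior Hox genes rose, and most posterior ones were not called at very few counts. Of 15 anterior Hox genes tested 13 rose and none fell, with a median of 4.71, or 3.75 with genes at 0 in shNT at their bound. Hoxb1 and Hoxd1 were not called, the latter at 1 count in all. Hoxb4 held 0.124 and 0.115 CPM in shNT and 24.7 and 22.6 in shBeclin1 (7.54). Hoxa3 and Hoxb3 rose by 3.83 and 3.20, but 27.1% and 52.9% of their exon length is shared with neighbouring genes. Of 19 posterior Hox and caudal genes tested 4 rose, on few counts: Hoxa9 and Cdx2 had 8 counts in the shBeclin1 pair and none in shNT. The calls for Cdx2, Hoxa9 and Hoxd8 were lost without shNT replicate 1, and 1 or 2 of these 3 without each of the other libraries in turn. Of 17 retinoic acid genes 6 rose and 8 fell. Cyp26a1, which breaks retinoic acid down, was lower by a ratio of 102 (27.8 to 846), and Crabp1, a binding protein, fell from 226 and 252 CPM to 37.8 and 25.3 (-2.93).

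Pluripotency genes were lower, endoderm genes mixed and epithelial genes higher. Of 21 pluripotency genes 17 fell and 2 rose (median -1.65). Pou5f1 held 24.2 and 21.3 CPM in shNT and 5.92 and 5.66 in shBeclin1 (-1.97), and Lin28a, an RNA-binding protein that blocks let-7, 222 and 240 against 41.1 and 39.3 (-2.52). Of 20 endoderm and yolk sac genes 10 rose and 7 fell, and the number rising was not kept under a stricter filter or DESeq2. Afp, alpha-fetoprotein, was higher by a ratio of 130 (35.8 to 1080) and Ttr, transthyretin, rose by 4.72. Of 21 epithelial genes 14 rose and 2 fell (median 0.99), or 1 fell without shNT replicate 1 or shBeclin1 replicate 2. Grhl3, a surface epithelial factor, rose from 1.92 and 2.12 CPM to 59.2 and 50.6 (4.76), Dsp, desmoplakin, from 27.6 and 25.1 to 277 and 298 (3.45) and Epcam by 0.61, while Cdh1, E-cadherin, fell by 0.32.

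**Figure D4:**
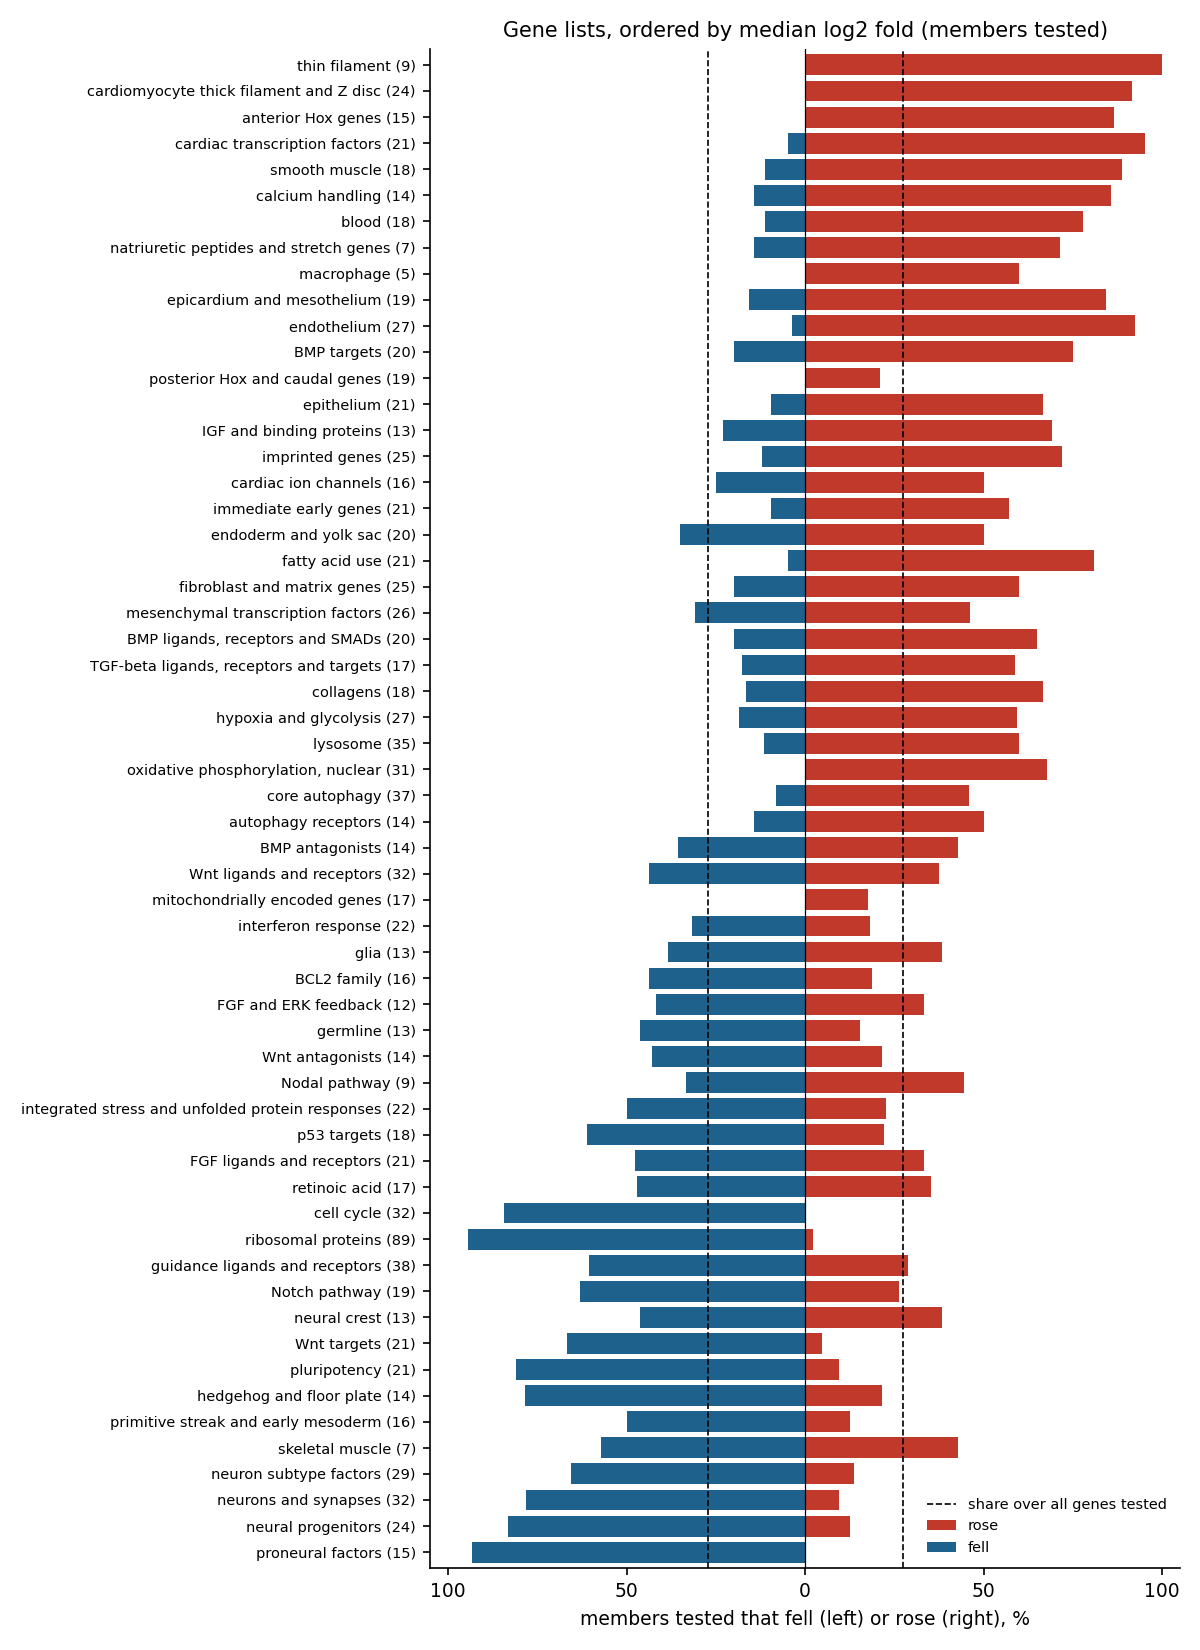
Percent of tested members that rose (red, to the right) and fell (blue, to the left) for the 58 gene lists, ordered by median log2 fold, with dashed lines at the 27.3% of all genes that rose and the 27.3% that fell. Thin filament genes stand at the top with all members rising and proneural factors at the bottom with 14 of 15 falling.

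Wnt pathway ligands moved both ways and common readouts of canonical signalling were lower. Of 32 ligands and receptors 12 rose and 14 fell (median 0.08, from 0.00199 without shNT replicate 2 to 0.146 without shBeclin1 replicate 2). Wnt1, a ligand of midbrain and dorsal neural tube, held 51.5 and 41.6 CPM in shNT and 0.114 and 0.202 in shBeclin1 (-8.11, adjusted p = 1.1e-22). Wnt2, a ligand of early heart and vasculature, was higher by a ratio of 1050 (187 to 41300). Wnt11, which acts in heart development largely without beta-catenin, rose from 1.18 and 0.630 CPM to 5.47 and 7.48 (2.85). Among receptors Fzd4 rose from 16.9 and 18.96 to 107 and 98 (2.51) and Fzd3 fell from 275 and 265 to 58.7 and 55.2 (-2.25). Wnt1 was thus high in the shNT pair alone, and Wnt2 in the shBeclin1 pair alone.

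Of 21 Wnt target genes 14 fell and 1 rose (median -1.11). Axin2, a feedback inhibitor used as a readout, held 34.6 and 33.6 CPM in shNT and 10.7 and 8.64 in shBeclin1 (-1.82, adjusted p = 7.03e-15), Apcdd1 116 and 91.0 against 3.76 and 3.99 (-4.73), and Lef1, a nuclear effector, 12.8 and 13.3 against 5.75 and 6.27 (-1.11). Ccnd1, cyclin D1, held 182 and 189 against 61.3 and 48.3 (-1.76), with 23.4% of its exon length shared. The member that rose, Bambi, a decoy receptor that BMP signalling also induces, held 12.1 and 15.01 against 151 and 135 (3.39, adjusted p = 8.21e-28). Of 14 secreted antagonists 3 rose and 6 fell (median -0.22, or -0.56 without shBeclin1 replicate 1 and -0.37 without shNT replicate 1). Dkk1, an inhibitor of the LRP co-receptors, fell from 57.6 and 56.6 CPM to 8.94 and 6.52 (-2.89, adjusted p = 4.19e-21), whereas Sfrp1, which binds Wnt ligands, rose from 151 and 167 to 412 and 403 (1.36). Lower Axin2 and Apcdd1 moved beside lower neural genes, whose part in the result was not tested.

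BMP ligands and receptors rose for the most part. Of 20 ligands, receptors and SMADs 13 rose and 4 fell (median 0.44). Bmp10 had no count in shNT and 16.5 and 29.7 CPM in shBeclin1, and Bmp4, a ligand of mesoderm induction, held 45.8 and 52.9 against 103 and 129 (1.23, adjusted p = 1.69e-14). Bmp2, which acts in the atrioventricular canal, held 6.76 and 4.47 against 19.7 and 23.7 (1.96), and Bmp3, an atypical member, fell by 5.81. The receptors Bmpr1a and Bmpr2 rose by 0.54 and 0.93, and Smad9, a BMP signal transducer, from 4.28 and 5.67 CPM to 38.3 and 37.2 (2.92). Leaving out shBeclin1 replicate 2 brings Bmp3 to -6.94, which changes no direction.

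Of 20 BMP target genes 15 rose and 4 fell (median 1.76). Smad6, an inhibitory SMAD, held 4.22 and 3.95 CPM in shNT and 44.9 and 43.9 in shBeclin1 (3.44, adjusted p = 4.37e-23), and Smad7 8.50 and 7.68 against 35.3 and 38.4 (2.19). The inhibitor of differentiation genes split, with Id1 at 38.7 and 45.7 against 71.0 and 57.3 (0.60), Id2 at 136 and 150 against 306 and 257 (0.98), and Id3 and Id4 lower by 0.39 and 0.30. The homeobox gene Msx1 and the T-box gene Tbx3 were the other members that fell (-1.37 and -1.28), and Msx2 rose by 2.09. Without shBeclin1 replicate 2 the number falling was 2. Several members of the list, such as Hand1, Hand2 and Gata2, are also heart or blood factors. Of 14 antagonists 6 rose and 5 fell (median 0.12, or 0.06 without shBeclin1 replicate 1 and 0.08 without replicate 2). Fst, follistatin, held 53.8 and 55.6 CPM against 1.14 and 1.31 (-5.46, adjusted p = 7.33e-29), Sostdc1 17.4 and 14.0 against 0.171 and 0.202 (-6.33), and Chrdl1 fell by 2.78.

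Of the other signalling families, TGF-beta genes mostly rose and Notch genes mostly fell. Of 17 TGF-beta genes 10 rose and 3 fell (median 0.39, or 0.59 without shNT replicate 1), and 1 fell without shNT replicate 1 or without shBeclin1 replicate 2. Tgfb1 held 4.53 and 4.07 CPM in shNT and 37.1 and 40.1 in shBeclin1 (3.17), and Tgfb2, which drives valve cushion formation, 74.1 and 69.99 against 326 and 309 (2.14). Of 19 Notch genes 5 rose and 12 fell (median -0.65). Notch1 held 51.4 and 46.2 against 13.8 and 14.2 (-1.80) and the ligand gene Dll1 22.5 and 24.7 against 0.456 and 0.960 (-5.02, -5.67 without shBeclin1 replicate 2), with 20.5% of its exon length shared. Hes5, a target in neural progenitors, was at least 56.0-fold lower. Jag1, a ligand of vascular and cardiac cells, rose from 51.4 and 53.4 to 180 and 156 (1.68), and Hey2, a target in ventricle and artery, from 4.22 and 5.04 to 27.3 and 27.8 (2.57).

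FGF and Nodal genes moved in both directions. Of 21 FGF ligands and receptors 7 rose and 10 fell (median -0.39). Fgfr3 held 83.1 and 88.9 CPM in shNT and 22.1 and 22.0 in shBeclin1 (-1.96), and Fgfr2 fell by 1.28. Of 12 ERK feedback genes 4 rose and 5 fell, and the number rising was 2 or 3 when any of the 4 libraries was left out. Etv5 and Spred1 fell by 1.07 and 0.59. Of 9 Nodal pathway genes 4 rose and 3 fell, and Tdgf1, the co-receptor, rose by 0.46.

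Genes of the autophagy machinery changed little next to the lineage genes. Of 37 core autophagy genes 17 rose and 3 fell, with a median of 0.20 and no member changed by 2-fold, and 13 to 16 rose when 1 library was left out. The members that fell were Atg5, from 43.1 and 40.7 CPM to 33.6 and 32.1 (-0.35, adjusted p = 0.000549), its partner Atg12, from 140 and 147 to 114 and 115 (-0.33), and Pik3c3, the kinase that Beclin1 binds, from 67.0 and 66.4 to 53.4 and 53.5 (-0.32, adjusted p = 0.000146). The alternative partners Atg14 and Uvrag rose by 0.34 and 0.45. Atg9a, the membrane protein of the seed vesicles, rose by 0.80, and Wipi1, Vmp1 and Rb1cc1 by 0.45, 0.45 and 0.44. Of 14 autophagy receptor genes 7 rose and 2 fell (median 0.16), or 1 fell without either shNT library or shBeclin1 replicate 2.

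Sqstm1, the receptor p62 that autophagy itself degrades and that several stress pathways induce, had the largest rise among the receptor genes named. It held 98.5 and 101 CPM in shNT and 189 and 201 in shBeclin1 (0.97, SE 0.063, adjusted p = 6.1e-16), without overlap, and went from 174 to 314 in the CM culture. It shares 17.3% of its exon length with Mrnip on the opposite strand. Of 35 lysosome genes 21 rose and 4 fell (median 0.25), and 13 rose and 1 fell without shNT replicate 2. Tfeb, the regulator of lysosome genes, held 2.30 and 1.83 CPM against 8.49 and 7.48 (1.95), and Lipa, the lysosomal lipase, 39.0 and 39.0 against 91.9 and 78.8 (1.13, adjusted p = 4.02e-14). The proteases Ctsb and Ctsa rose by 0.75 and 0.82. Of 16 BCL2 family genes, whose products include binding partners of Beclin1, 3 rose and 7 fell (median -0.05, from -0.15 without shBeclin1 replicate 1 to 0.03 without replicate 2). Bcl2 fell by 1.04 and Bax, a pore-forming member, from 58.0 and 61.2 CPM to 34.5 and 31.7 (-0.85). Hrk, a BH3-only member known from neurons, fell by 4.60, and Bik, another, rose by 5.16.

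Cell cycle and ribosomal protein genes were mostly lower, nearly all by less than 2-fold. Of 32 cell cycle genes 27 fell and none rose (median -0.45, from -1.04 to 0.19), with 1 rising without shBeclin1 replicate 2. Pcna, the replication clamp, held 202 and 209 CPM in shNT and 115 and 85.5 in shBeclin1 (-1.04, adjusted p = 1.89e-11), Top2a 1435 and 1450 against 943 and 818 (-0.71), and Mki67 586 and 574 against 520 and 458 (-0.25). Of 89 ribosomal protein genes 84 fell and 2 rose (median -0.50, from -0.985 to 0.932), with 0 or 1 rising when 1 library was left out, for example Rps12 from 419 and 442 CPM to 272 and 253 (-0.71). When 1 library was left out, 81 to 84 ribosomal and 23 to 28 cell cycle genes fell. Many ribosomal protein genes have near-identical processed copies. Of 1054 processed pseudogenes tested 21.1% fell and 4.46% rose, both below the 27.3% each way over all genes tested.

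Stress and growth genes added a mixed picture. Of 18 p53 targets 4 rose and 11 fell (median -0.36), with Sesn2 going from 44.7 and 40.03 CPM to 18.2 and 19.2 (-1.18). Of 22 genes of the integrated stress and unfolded protein responses 5 rose and 11 fell (median -0.31, or -0.19 without shBeclin1 replicate 1). Psat1, of serine synthesis, held 320 and 354 CPM in shNT and 83.2 and 70.4 in shBeclin1 (-2.14, adjusted p = 6.82e-25), and Asns, asparagine synthetase, 305 and 318 against 118 and 121 (-1.39). Of 22 interferon response genes 4 rose and 7 fell, and 2 or 3 rose when 1 library was left out. Of 21 immediate early genes 12 rose and 2 fell (median 0.79), with Fosl2 going from 7.07 and 8.19 CPM to 35.3 and 34.9 (2.20).

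Imprinted and IGF genes rose for the most part. Of 25 imprinted genes 18 rose and 3 fell (median 0.97). Igf2r, the receptor that clears IGF2, held 219 and 212 CPM in shNT and 1408 and 1646 in shBeclin1 (2.83), Plagl1, a zinc finger factor, 81.4 and 89.3 against 613 and 666 (2.90), and H19, a noncoding RNA, 129 and 120 against 515 and 516 (2.05). Both shBeclin1 libraries lay well above both shNT libraries in each. Snrpn, which encodes a splicing protein, fell from 86.7 and 89.7 CPM to 40.1 and 46.6 (-1.02). Of 13 IGF and binding protein genes 9 rose and 3 fell (median 0.98), with Igfbp5 going from 386 and 343 CPM to 2680 and 2533 (2.84).

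Genes of fat use rose and those of glycolysis split. Of 21 fatty acid genes 17 rose and 1 fell (median 0.69), or 2 fell without shBeclin1 replicate 2. Lpl, lipoprotein lipase, held 39.8 and 40.2 CPM in shNT and 170 and 213 in shBeclin1 (2.26), Cpt1a, which admits fatty acids to mitochondria, 15.2 and 17.9 against 47.8 and 57.9 (1.67), and Ppargc1a, a coactivator of mitochondrial genes, 4.47 and 5.44 against 28.3 and 36.7 (2.71). Of 31 nuclear genes of oxidative phosphorylation 21 rose and none fell, by a median of 0.21, and 14 rose without shBeclin1 replicate 2. The muscle isoform gene Cox6a2 rose from 0 and 0.229 CPM to 7.01 and 13.7. Of 27 hypoxia and glycolysis genes 16 rose and 5 fell (median 0.28, or 0.13 without shBeclin1 replicate 2), with Pkm, pyruvate kinase, going from 2696 and 2802 CPM to 1851 and 1963 (-0.53) and Car9, a hypoxia target, from 2.79 and 2.23 to 8.60 and 13.8 (2.16). Of 17 mitochondrially encoded genes 3 rose and none fell (median 0.07, from -0.00796 without shNT replicate 1 to 0.141 without shNT replicate 2), and 1 fell without shNT replicate 1 or shBeclin1 replicate 1.

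Start site sequence was described for the genes that moved with the GATA factors. AGATAA, the core that GATA factors bind, was searched on both strands in the window from 250 bases before to 50 bases after the start, in the 12924 tested genes with a RefSeq promoter (GRCm38.p6). It was present in 8.40% of all of them, 9.31% of genes that rose, 7.57% of genes that fell, 17.7% of the 696 genes that rose at least 4-fold and 9.46% of the 761 that fell as much. TATAAA, the TATA box, stood at 9.47% of all, 16.5% of the 4-fold rises and 14.8% of the 4-fold falls. The E box CANNTG stood at 68.8%, 77.2% and 76.6%, and CTTTGA, the TCF/LEF core, at 14.6%, 17.4% and 15.8%. The 4-fold limit was chosen after the values were seen. These are letter matches, not binding sites. Promoters of a troponin, a BMP ligand, an epicardial factor and a haem enzyme, each with a rise given above, are shown because they hold the GATA core, with the match in capitals (TTATCT where it lies on the other strand). Tnnt2 lies on the plus strand at chr1:135836084-135836383 with its match at -166 from the start, and its second listed start has none. Bmp10 lies on the plus strand at chr6:87428744-87429043 with matches at -219 and -33. Tcf21 lies on the minus strand at chr10:22820094-22820393 with a match at -31, and Alas2 on the plus strand at chrX:150547167-150547466 with a match at -86.
Tnnt2: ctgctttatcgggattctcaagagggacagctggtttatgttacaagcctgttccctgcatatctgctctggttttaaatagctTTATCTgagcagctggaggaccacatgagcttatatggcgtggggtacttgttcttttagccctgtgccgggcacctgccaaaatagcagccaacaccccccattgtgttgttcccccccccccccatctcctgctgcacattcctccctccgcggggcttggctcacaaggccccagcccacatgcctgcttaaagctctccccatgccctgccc
Bmp10: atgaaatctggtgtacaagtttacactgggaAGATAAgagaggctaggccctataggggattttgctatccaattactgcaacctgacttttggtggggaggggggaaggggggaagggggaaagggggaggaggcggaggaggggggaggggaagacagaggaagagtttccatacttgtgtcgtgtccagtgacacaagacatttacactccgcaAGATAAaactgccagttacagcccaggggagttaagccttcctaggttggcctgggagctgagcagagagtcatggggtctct
Tcf21: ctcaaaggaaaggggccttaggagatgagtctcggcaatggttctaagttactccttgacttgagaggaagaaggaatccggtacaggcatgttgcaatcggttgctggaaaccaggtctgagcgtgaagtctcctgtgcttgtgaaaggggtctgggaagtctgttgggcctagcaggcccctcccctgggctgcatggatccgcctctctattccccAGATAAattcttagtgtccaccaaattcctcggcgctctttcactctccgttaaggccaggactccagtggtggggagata
Alas2: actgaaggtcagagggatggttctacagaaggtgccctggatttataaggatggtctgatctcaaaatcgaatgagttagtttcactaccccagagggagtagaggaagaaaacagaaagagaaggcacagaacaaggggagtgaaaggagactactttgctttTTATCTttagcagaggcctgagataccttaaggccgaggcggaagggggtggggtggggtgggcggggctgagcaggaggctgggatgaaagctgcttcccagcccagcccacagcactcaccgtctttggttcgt

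The knockdown in the CM culture at the same day has its own controls and can be set beside this one. Of 10466 genes called without GF, 5323 (50.9%) were also called in the CM culture, where 7346 of all 19141 genes were called. These 5323 are 72.5% of the CM calls, while 54.7% of all genes tested were called without GF. Of the shared calls 4427 (83.2%) went the same way, 2400 up in both and 2027 down in both, while 539 rose without GF and fell in CM and 357 did the opposite. Across the 19141 genes the log2 folds had a Pearson r of 0.585. A change of at least 2-fold was called in 4133 genes without GF, 2874 in CM, 963 in embryoid bodies and 294 in ES cells. With embryoid bodies the share of common calls in the same direction was 55.7% of 2777, and with ES cells 39.2% of 1706, with r of 0.104 and 0.0177. The genes are not independent replicates and the value is a description.

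The difference between the effects in the day 10 cultures was itself tested, as the log2 fold without GF minus that in CM. It passed for 6584 genes (34.4%), of which 3480 were more positive without GF and 3104 more negative. Heart muscle rose in both. The summed cardiomyocyte markers went from 43.4 to 4300 CPM in CM, and the median log2 fold was 6.28 for thick filament genes there against 5.65 here and 5.49 for thin filament genes there against 6.28 here. The 21 cardiac transcription factors had medians of 3.87 there and 4.22 here, with the difference more positive for 10 and more negative for 5. Endothelial genes had a median of 2.12 here and -0.15 in CM, with the difference called more positive for 23 and more negative for 1 of 27. Kdr went from 219 to 248 CPM in CM and Cdh5 from 238 to 258, so the shBeclin1 levels without GF (73.0 and 84.2 for Kdr) stayed below the CM control. The difference for Kdr was 3.20 (adjusted p = 1.1e-22).

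**Figure D5:**
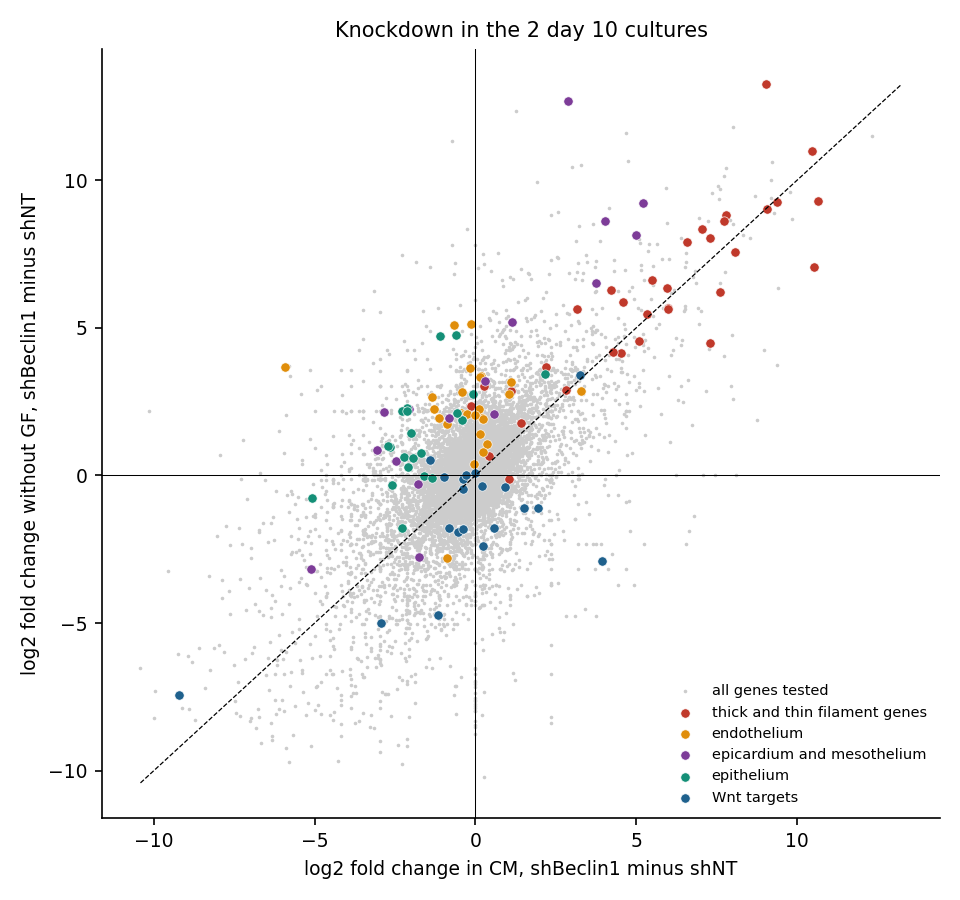
Log2 fold of shBeclin1 over shNT in the CM culture (horizontal axis) and in the culture without GF (vertical axis) for every gene tested, with 5 gene groups in colour and a dashed line where both are equal. Thick and thin filament genes lie high on both axes, while endothelial, epicardial and epithelial genes have medians of -0.15, -0.42 and -1.99 for CM and above 0 without GF, with some epicardial genes, such as Bnc1 and Wt1, high on both axes.

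Epicardial genes had a median of -0.42 in CM, where 6 rose and 9 fell, and the difference was more positive for 17 and more negative for 1 of 19. Tbx18 fell from 15.6 to 2.16 CPM in CM while it rose here (difference 4.99, adjusted p = 3.2e-23), and Tcf21 went from 2.31 to 17.0 there. The sum of the 4 epicardial markers also rose in CM, from 2.98 to 31.5 CPM, with Wt1 going from 0.205 to 7.56 and Upk3b from 0.186 to 6.79. For Wt1 the difference of 3.14 was called, but without CM shNT replicate 1 it was 1.36 (adjusted p = 0.662). Epithelial genes had a median of -1.99 in CM, where 1 rose and 16 fell, and the difference was more positive for 19 and more negative for none of 21. Grhl3 went from 2.18 to 1.42 CPM there (difference 5.37). Anterior Hox genes had a median of 0.70 in CM, with 10 of 15 differences more positive here, and posterior Hox and caudal genes a median of 3.61 with 14 rising there, though the difference itself was called for 2 of 19, both more negative here. Igfbp5 fell from 1434 to 553 CPM in CM.

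Wnt targets more often had the more negative effect here, while ligands, receptors and antagonists went both ways. Dkk1 rose in CM from 2.62 to 40.6 CPM (3.93) and fell without GF, a difference of -6.82 (adjusted p = 2.3e-25). Lef1 rose from 9.35 to 36.5 CPM in CM (difference -3.07) and Nkd1, a feedback inhibitor, from 8.59 to 24.7, while both fell by 1.11 without GF. Of 21 Wnt targets the difference was more negative for 10 and more positive for 2, of 32 ligands and receptors for 12 and 10, and of 14 antagonists for 5 and 3. Sfrp1 fell from 160 to 42.4 CPM in CM and rose here (difference 3.27). Msx1 rose from 0.325 to 37.7 CPM in CM and fell here (difference -8.17). Bmp4 rose in both cultures, from 19.4 to 117 CPM in CM. Neuron genes had a median of -1.02 in CM, from a control sum of 36.1 CPM against 407 and 423 without GF. Cell cycle and ribosomal protein genes had medians of 0.04 and -0.09 in CM, with the difference more negative for 26 of 32 and 74 of 89.

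The first principal component of the 8 day 10 libraries held 60.4% of the variance. The shNT libraries without GF lay at -74.7 and -74.7 on it and the shNT CM libraries at -21.4 and -20.5, while the shBeclin1 libraries lay at 39.9 and 45.5 without GF and at 53.3 and 52.8 in CM. On this component the distance between hairpins was larger without GF, where the control pair stood farthest out.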

How the data were processed

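Counts of reads per gene symbol for 16 libraries (54052 entries) were deposited by the authors as 1 table, all of whose columns were matched to libraries by name. Per the labels' protocols, total RNA was depleted of rRNA and made into stranded libraries, though the molecule tag says polyA RNA. The submitters' processing notes list Subread 1.5.1, featureCounts, SAMtools and Trimmomatic 0.36, with mm10 as the build. Aligner, annotation and strand use: not given in the sources used here. Of the entries, 18471 were 0 throughout and 882 repeated a symbol. Totals per library stand with the results.

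In R 4.3.3, edgeR 4.0.16 kept 19141 genes (filterByExpr), scaled them with TMM (factors 0.884 to 1.08) and fitted a robust quasi-likelihood model with 8 group means to all 16 libraries, which left 8 residual degrees of freedom and a common biological coefficient of variation of 5.38%. Calls used a Benjamini-Hochberg adjusted p under 0.05. The pipeline was tested on simulated data in which few genes changed. That test does not cover a shift of most genes, as found here. Replicate numbers were not taken to pair libraries, as the correlation of replicate differences between hairpins was -0.02 over 15138 genes. For a group at 0, a fold took 3 counts in the pair as its floor, and with 1 to 3 counts it is a ratio with its 95% interval. Intervals and floors cover counting error alone. DESeq2 1.42.0, other scalings and filters, a replicate block and leaving out libraries were alternatives.

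The comparison, the 58 gene lists and the tests were chosen with earlier results of these data known. The rule for named genes took Becn1, the 10 largest rises and 10 largest falls with a mean of at least 4 CPM and groups that do not overlap, 4 called members with the smallest adjusted p per list, filled up to 2, and the 6 largest differences between cultures each way. It gave 236 genes, of which a few are not reported here, and other list members were named after their values were seen. Of tested symbols 97.0% were placed with GENCODE vM21.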

Additional observations from a re-analysis of the deposited data

Results flagged for a closer look

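The knockdown effect without GF differed from that in the CM culture for 6584 genes by the test of the difference itself (edgeR, adjusted p under 0.05; 8067 at an unadjusted p under 0.05). The 6 largest differences in each direction were taken among called genes with a mean of at least 4 CPM over the 4 libraries and groups that do not overlap, so that a gene below that level can differ more, and those reported are given here. Each value is the log2 fold without GF minus that in CM. Fitted differences that involve a group at 0 depend on the prior count of the fit and are no bound.

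Of those more positive without GF, Oit3 had a difference of 11.1, with 2.83 CPM in CM shNT and 6.97 in CM shBeclin1. For Tcf21 the difference was 9.78. Arg1, arginase 1, differed by 8.19, with 1.30 and 1.09 CPM against 11.5 and 5.05 without GF (log2 fold 2.77, or 2.08 without shBeclin1 replicate 1) and a fall from 62.1 to 1.46 CPM in CM. Shox2, a sinus node factor, differed by 7.85, with 1.18 and 1.38 against 16.1 and 32.5 CPM without GF (4.24, or 3.64 without shBeclin1 replicate 2) and a fall from 4.20 to 0.345 in CM. Wt1os, antisense to Wt1, differed by 7.45 and was at least 117-fold higher without GF, but its difference was 3.60 (adjusted p = 1) without CM shNT replicate 1.

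Of those more negative without GF, Wnt8b and Sfta3-ps each differed by -10.5, with CM levels at or under 0.0965 CPM for Wnt8b and at 0 and 0.0293 for Sfta3-ps. Without CM shBeclin1 replicate 1 the value for Wnt8b was -6.73 and without replicate 2 that for Sfta3-ps was -8.16 (adjusted p = 1 for both). Nkx2-1, a forebrain and lung factor, differed by -8.16, falling from 22.0 and 25.3 CPM to 0.114 and 0.253 without GF (-6.93, or -7.61 without shBeclin1 replicate 2). Dkk1 differed by -6.82. Adcyap1, a neuropeptide precursor, differed by -6.50 and was lower without GF by a ratio of 153 (95% counting interval 51.9 to 744). Robo3, a commissural axon receptor, differed by -6.42, falling from 8.19 and 10.3 CPM to 0.114 and 0.253 (-5.57, or -6.26 without shBeclin1 replicate 2). In both CM groups Nkx2-1, Adcyap1 and Robo3 were at or under 1.41 CPM.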

How the results depend on the processing

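The counts of calls, their direction and the fold of Becn1 kept their side under RLE or total count scaling, no filter, a stricter filter, DESeq2, the 4 libraries alone and each omission. Called genes numbered 9249 to 10490 under the other settings and 8778 to 9907 when 1 library was left out (4322 to 4896 rising, 4435 to 5011 falling). Becn1 ran from -0.542 to -0.459 and the difference between cultures was called for 5353 to 6437 genes in those omissions. Genes called both in the main fit and in another setting kept their direction. The settings refit the same counts, so this match is no separate support. With the replicate number as a block, 10407 genes were called, the log2 fold of Becn1 was -0.498 and the difference was called for 6577. The numbers are not stated to pair libraries. Of 2562 values of named genes, 15 lost their call, in Cdx2, Csf1r, Csrp3, Hoxa9, Hoxd8, mt-Nd5 and mt-Rnr1, and 0 reversed. The cause was not tested. With 2 libraries a group, folds of genes with few counts are the least certain.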

Other observations

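Further lists held few members or split. Of 7 skeletal muscle genes tested 3 rose and 4 fell, and Myod1, Myog and Myf5 were among those not tested. Acta1, skeletal actin, which fetal heart also expresses, rose from 7.94 and 7.50 CPM to 37.0 and 45.8 (log2 fold 2.42), and Pax3, a factor of somites and neural crest, had no count in shBeclin1 and was at least 19.3-fold lower. Of 13 glial genes 5 rose and 5 fell. Cspg4, also a pericyte gene, rose from 1.74 and 1.09 CPM to 36.7 and 28.4 (4.53) and Nfib from 4.96 and 4.24 to 82.0 and 68.3 (4.03), while Ptprz1 fell from 11.6 and 12.3 to 0.513 and 0.859 (-4.09). Of 13 neural crest genes 5 rose and 6 fell, or 4 fell without shNT replicate 2 or shBeclin1 replicate 2. Of 16 streak and early mesoderm genes 2 rose and 8 fell, or 1 rose without either shNT library or shBeclin1 replicate 2. Snai1, which drives loss of epithelial junctions, was one that rose, from 3.47 and 2.98 CPM to 11.6 and 9.55 (1.71), and the other, Evx1, had 5 counts in shBeclin1. Of 13 germline genes 2 rose and 6 fell, or 1 rose without either shNT library or shBeclin1 replicate 1, with Dppa3 going from 8.996 and 8.36 CPM to 2.39 and 2.27 (-1.89).

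By chromosome, the share of tested genes that rose was highest on chromosome 8 (36.9%, against 18.7% that fell) and on chromosome 6 (34.6% against 24.9%). Among genes with at least 4 CPM the median log2 fold was 0.16 on chromosome 8 and 0.11 on chromosome 6 without GF, 0.10 and -0.02 in CM, and -0.02 and -0.07 in ES cells. These values were not tested.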
